A study of Mus musculus with 5 samples.

Results

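A panel of 10 integrated stress response genes was followed in the neural tubes of mouse embryos with and without the erythropoietin receptor, EpoR. The genes, Atf4, Ddit3, Ddit4, Trib3, Asns, Chac1, Sesn2, Psat1, Hspa5 and Xbp1, were taken by symbol from a table of 23284 genes, and 8 of them passed the filter on low counts. PolyA RNA was sequenced from neural tubes of EpoR+/+ (wild type, n = 2), EpoR+/- (heterozygote, n = 1) and EpoR-/- embryos (EpoR-null, n = 2), where n counts libraries. The EpoR+/+ and EpoR+/- libraries served jointly as the 3 controls. The embryos came from EpoR+/- matings and are called littermates, no treatment is given, and the labels give an age of E8.5, a little earlier than the study's text does. The allele was deleted in the whole embryo, and the neural tubes were freed by manual and enzymatic dissection.

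The integrated stress response slows protein synthesis when amino acids or heme run short, when unfolded proteins collect in the endoplasmic reticulum (ER) or when a virus is present. Kinases that sense these states phosphorylate the initiation factor eIF2, most mRNAs are then translated less, and the mRNA of the transcription factor ATF4 is translated more. ATF4 in turn switches on genes for amino acid synthesis and transport, for tRNA charging and for the redox balance, and, if the stress lasts, a branch that leads to cell death through CHOP, the product of Ddit3. ER stress also acts through the sensors IRE1, which splices the Xbp1 mRNA, and ATF6, and both raise ER chaperones such as that encoded by Hspa5. Because ATF4 is controlled mostly by translation and XBP1 by splicing, the mRNA level of Atf4 or Xbp1 is not a measure of the active protein, while the mRNA levels of their target genes follow it more closely.

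The 4 promoters in which a binding motif of this response was found are shown first, because the data that follow are the mRNA levels of the genes they drive. RefSeq windows of 300 bases (build GRCm38.p6, 250 bases before the start site and 50 after) were matched for all 10 genes, in 11 windows, and were searched on both strands. The motifs were the C/EBP-ATF response element TGATGNAA, bound by ATF4 and its partners, the unfolded protein response element TGACGTG, and the ER stress response element, which is CCAAT, 9 bases of any kind and CCACG. None of the matches overlapped another. Of 32851 windows in the table, 3.97% held the first motif, 2.01% the second and 0.119% the third. The lines below run 5′ to 3′ on the strand of the gene, with the motif in capitals.
Trib3, chr2:152344028-152344057, minus strand: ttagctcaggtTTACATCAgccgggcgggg
Asns, chr6:7693210-7693262, minus strand: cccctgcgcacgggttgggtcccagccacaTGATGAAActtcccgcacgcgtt
Chac1, chr2:119351019-119351086, plus strand: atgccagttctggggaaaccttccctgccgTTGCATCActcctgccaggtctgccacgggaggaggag
Hspa5, chr2:34771903-34772073, plus strand: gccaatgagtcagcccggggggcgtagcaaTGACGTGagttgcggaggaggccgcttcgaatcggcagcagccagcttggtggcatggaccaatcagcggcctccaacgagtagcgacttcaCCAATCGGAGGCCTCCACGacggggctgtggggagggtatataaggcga
The C/EBP-ATF response element was on the strand of the gene in Asns, from base -23 to base -16 relative to the start site, and on the opposite strand in Chac1 (-193 to -186) and in Trib3 (15 to 22 after the start site). The Hspa5 window held the unfolded protein response element at -157 to -151 and the ER stress response element at -65 to -47. In the windows of Atf4, Ddit3, Ddit4, Sesn2, Psat1 and Xbp1 none of these letters was found, which says nothing about elements elsewhere in these genes.

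Reads counted on genes ranged from 19316126 to 41169218 per library, so that 3 reads were worth between 0.0729 and 0.155 CPM, the reads of a gene scaled to a common library total. All levels below are in CPM after TMM scaling, which corrects for differences in composition between libraries. Epor itself was measured at 2.36 and 1.62 CPM in the wild type libraries (57 and 68 reads), 0.476 CPM in the library labelled heterozygous (11 reads), and 0.354 and 0.669 CPM in the EpoR-null libraries (7 and 19 reads). The library labelled heterozygous thus lay among the EpoR-null libraries, between the 2 of them, and the groups overlapped. The difference of EpoR-null against controls in Epor was -1.51 on the log2 scale (SE 0.76, adjusted p = 0.2797, edgeR exact test), and -1.91 without the library labelled heterozygous (adjusted p = 0.05283). Epor passed the filter on low counts only through the wild type libraries, so its test is not independent of the filter. Which part of Epor the allele lacks is not given in the labels, so the remaining reads could not be placed, and each result below is also given without that library where its removal matters.

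Markers of the neural tube were present in every library, the summed level of 9 neural progenitor markers being 2030 to 2300 CPM in the controls and 1720 to 2050 CPM in the EpoR-null libraries. The 7 markers of primitive red cells summed to 44.2 CPM in the library labelled heterozygous, against up to 1090 CPM in the other controls and 966 to 1690 CPM in the EpoR-null libraries. That library was also lowest in the 7 markers of endothelium (12.4 CPM, against 143 to 297 CPM in the other 4) and in the 8 markers of somites and paraxial mesoderm (10.2 CPM, against 37.2 to 108 CPM). The 7 markers of early neurons summed to 1050 CPM in EpoR-null 1 and 238 CPM in EpoR-null 2, the highest and the lowest of the 5 libraries, with 317 to 527 CPM in the controls. Neural crest markers (6) ranged from 36.2 to 155 CPM in controls and 111 to 189 CPM in EpoR-null libraries, surface ectoderm markers (7) from 6.1 to 24.8 and 15.3 to 30.5 CPM, notochord and floor plate markers (5) from 59.4 to 83.2 and 57.1 to 85.8 CPM, and the 10 immediate early genes of dissection stress from 71.8 to 194 and 95.6 to 126 CPM. No marker on these lists was at 0 in all libraries, and 1 of them, the neural progenitor gene Msi1, passed the test (lower in EpoR-null, adjusted p = 0.007117). The part of these differences in the results below was not tested.

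**Figure D1:**
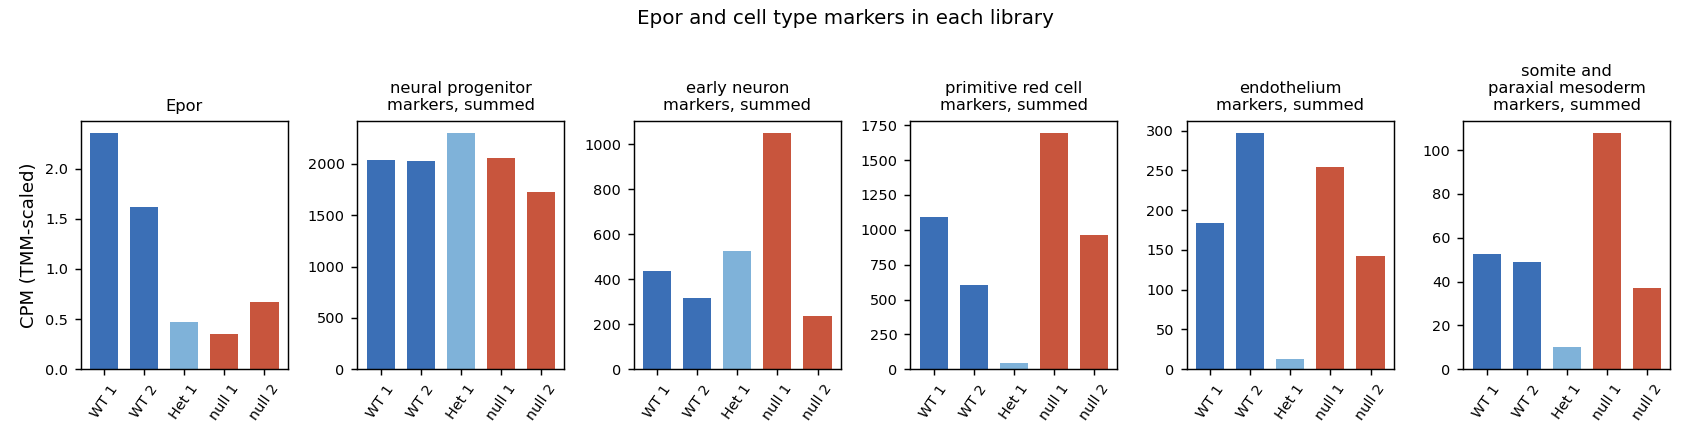
Epor and the summed markers of 5 cell types in each library, in TMM-scaled CPM (bars, 1 per library, each axis from 0; dark blue wild type, light blue heterozygote, red EpoR-null). The library labelled heterozygous, at 0.476 CPM, sits with the EpoR-null libraries for Epor and is the lowest of the 5 for red cell, endothelium and somite markers, and the early neuron markers are highest in EpoR-null 1 and lowest in EpoR-null 2.

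None of the 8 tested stress response genes passed the test between EpoR-null and control neural tubes at a false discovery rate (FDR) of 0.05. In the same edgeR exact test 928 of 12703 genes were called, 7.31% of those tested, 698 lower (5.49%) and 230 higher (1.81%) in EpoR-null. The log2 fold changes of the 8 genes ran from -0.49 for Sesn2 to 0.34 for Xbp1, 4 of them negative, with a median of 0.083, against a median of 0.056 over all genes tested. Xbp1 was the 1 gene of the 8 with an unadjusted p under 0.05, a level that 19.8% of all tested genes reached. Both EpoR-null libraries lay below all controls for Sesn2 and above all controls for Ddit3, Ddit4 and Xbp1, and the groups overlapped for the other 4. Over all genes tested, 22.1% had both EpoR-null libraries below all controls and 21.2% had both above, so 4 of 8 without overlap is near the background. With the quasi-likelihood F-test of edgeR no gene was called in the whole table (lowest adjusted p = 0.05898, with 3052 genes at an unadjusted p under 0.05), and 0 of the 8 genes was called. In bulk tissue a lower level in each cell and fewer cells with the transcript cannot be told apart. The study calls the embryos littermates, but which of them shared a litter is not given.

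**Figure D2:**
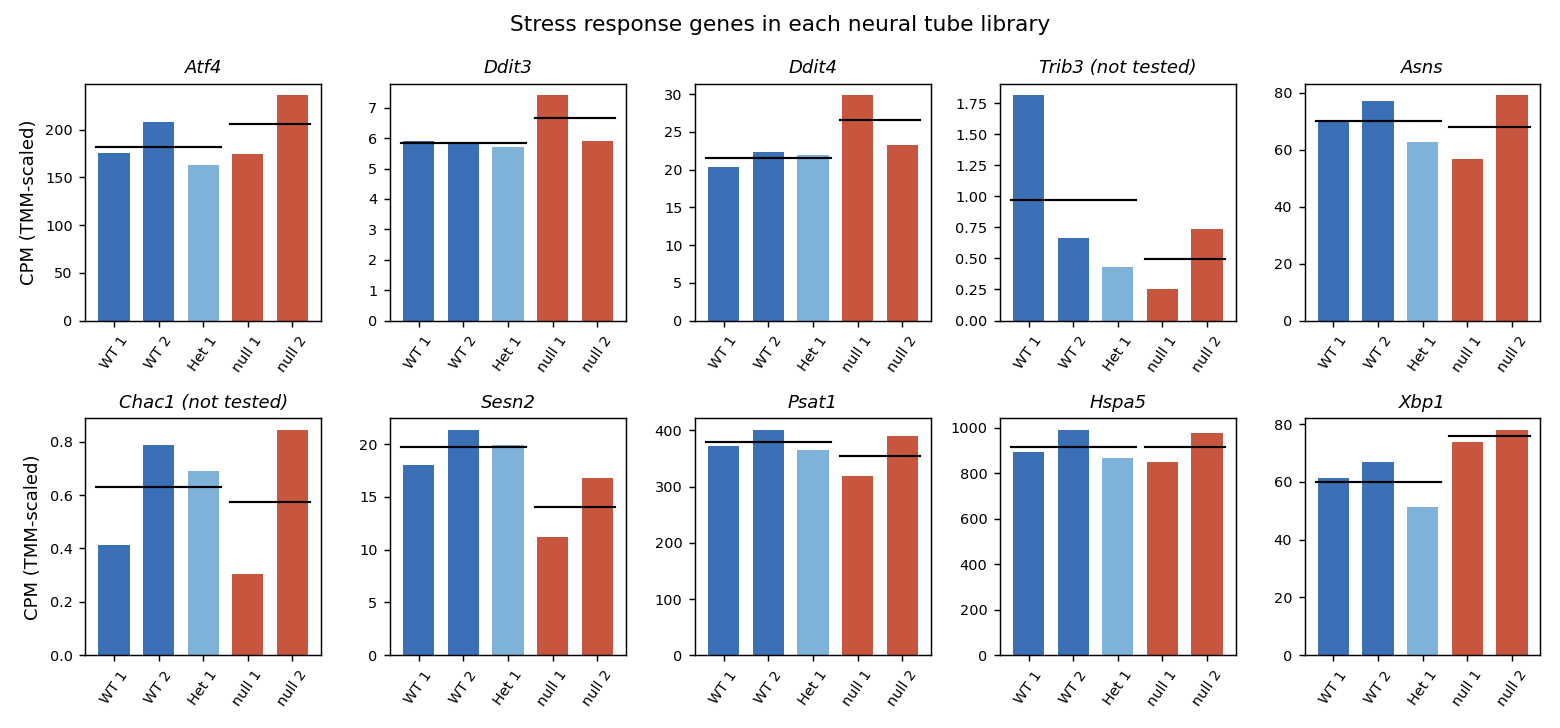
Level of each of the 10 genes in each library (bars, TMM-scaled CPM, each axis from 0; dark blue wild type, light blue heterozygote, red EpoR-null; black lines, group means of the 3 controls and the 2 EpoR-null libraries). Bars of the 2 groups reach similar heights for most genes, the EpoR-null bars of Sesn2 (11.2 and 16.8 CPM) are shorter than every control bar, and those of Xbp1 (73.95 and 78.1 CPM) are taller.

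Atf4, the transcription factor at the centre of the response, was abundant in every library. Its level was 176 and 209 CPM in the wild type libraries, 163 CPM in the library labelled heterozygous, and 175 and 237 CPM in the EpoR-null libraries. EpoR-null 2 was the highest of the 5 and EpoR-null 1 lay among the controls, so the groups overlapped. Controls averaged 182 ± 23.6 CPM (SD, n = 3) and EpoR-null 206 ± 43.8 CPM (SD, n = 2), a fold of 1.13 with a 95% interval of 0.852 to 1.49 (log2 fold change 0.17, SE 0.21, adjusted p = 0.6881). An increase or a decrease of Atf4 mRNA within that interval could not be detected with these 5 libraries. Without EpoR-null 1 the log2 fold change was 0.37 and without EpoR-null 2 it was -0.07.

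Ddit3, Trib3 and Chac1 belong to the arm of the response that follows lasting stress. Ddit3 encodes CHOP, a transcription factor that promotes cell death, and its level was low and even across the controls. It was 5.91 and 5.88 CPM in the wild type libraries (143 and 247 reads), 5.71 CPM in the library labelled heterozygous (132 reads), and 7.43 and 5.92 CPM in the EpoR-null libraries (147 and 168 reads). EpoR-null 1 was the highest library, while EpoR-null 2 exceeded the nearest control by less than the spread among the controls. The log2 fold change was 0.19 (SE 0.31, adjusted p = 0.7813), with a fold between 0.751 and 1.73 at 95%. Ddit3 overlaps Mars and the gene model Gm4189 on the other strand in the GENCODE annotation. Mars is itself a counted gene, so reads over both would be dropped in a counting without regard to strand. The strand setting is not given in the sources used here, so whether Ddit3 lost reads in this way is not known.

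Trib3, a pseudokinase that is induced by ATF4 and CHOP and restrains both, was close to the limit of detection and did not pass the filter. It had 44 and 28 reads in the wild type libraries (1.82 and 0.667 CPM), 10 reads in the library labelled heterozygous (0.432 CPM), and 5 and 21 reads in the EpoR-null libraries (0.253 and 0.740 CPM). Wild type 1 stood above the other 4 libraries, and the EpoR-null libraries lay on both sides of the library labelled heterozygous. Summed over libraries, Trib3 was at 0.918 CPM in controls (82 reads, exact Poisson 95% interval 0.73 to 1.14) and 0.539 CPM in EpoR-null (26 reads, 0.352 to 0.79), and these intervals cover counting error only.

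Chac1 encodes an enzyme that breaks down glutathione and is a late target of ATF4, and it too failed the filter. The wild type libraries had 10 and 33 reads (0.413 and 0.786 CPM), the library labelled heterozygous 16 (0.692 CPM) and the EpoR-null libraries 6 and 24 (0.303 and 0.845 CPM). The lowest and the highest values were both in EpoR-null libraries. The summed levels were 0.661 CPM in controls (59 reads, 0.503 to 0.852) and 0.622 CPM in EpoR-null (30 reads, 0.42 to 0.889). When the fit was run with no filter, neither gene was called, with log2 fold changes of -0.97 for Trib3 (adjusted p = 0.7759) and -0.15 for Chac1 (adjusted p = 1). The C/EBP-ATF response elements printed above for Trib3, Chac1 and Asns were thus beside transcripts that ranged from 5 reads (Trib3, EpoR-null 1) to 3235 reads (Asns, wild type 2) per library.

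Ddit4 and Sesn2 both hold back the growth kinase complex mTORC1, Ddit4 (also REDD1) through the TSC complex and Sesn2, a leucine sensor, through the GATOR complexes. Ddit4 was at 20.4 and 22.4 CPM in the wild type libraries, 22.0 CPM in the library labelled heterozygous, and 29.9 and 23.3 CPM in the EpoR-null libraries. Both EpoR-null libraries were above all controls, and EpoR-null 2 only slightly so. Ddit4 averaged 21.6 ± 1.03 CPM in controls (SD, n = 3) and 26.6 ± 4.66 CPM in EpoR-null (SD, n = 2), a fold of 1.23 (0.918 to 1.65) that did not pass the test (log2 fold change 0.30, SE 0.22, adjusted p = 0.4584).

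Sesn2 had the most negative log2 fold change of the 8 genes. The levels were 18.01 and 21.37 CPM in the wild type libraries and 19.9 CPM in the library labelled heterozygous, against 11.2 and 16.8 CPM in the EpoR-null libraries. Every control exceeded both EpoR-null libraries, and the gap between the 2 EpoR-null libraries was larger than that between wild type 1 and EpoR-null 2. On average Sesn2 had 19.8 ± 1.68 CPM in controls (SD, n = 3) and 14.0 ± 3.97 CPM in EpoR-null (SD, n = 2), a fold of 0.711 with an interval of 0.489 to 1.03 (log2 fold change -0.49, SE 0.28, adjusted p = 0.3272). The size of the log2 fold change depended on EpoR-null 1. Its sign was negative under all 19 alternative settings, from -0.82 to -0.23, though these reuse the same libraries. With EpoR-null 2 left out the log2 fold change was -0.82 and passed the test (adjusted p = 0.03064, the lone library being taken to vary like the others), and with EpoR-null 1 left out it was -0.23 (adjusted p = 0.5412). EpoR-null 1 is also the library with the highest sum of early neuron markers (1050 CPM). Sesn2 shares part of its locus with the gene model Gm12981 in the GENCODE annotation, and reads over both could not be told apart or were dropped, depending on the annotation used in the counting.

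Asns and Psat1 are biosynthetic targets of ATF4. Asns, asparagine synthetase, was at 70.0 and 77.1 CPM in the wild type libraries, 62.7 CPM in the library labelled heterozygous, and 56.8 and 79.2 CPM in the EpoR-null libraries. The lowest and the highest of the 5 were the EpoR-null libraries, on either side of all controls. Asns averaged 69.9 ± 7.17 CPM in controls (SD, n = 3) and 68.0 ± 15.9 CPM in EpoR-null (SD, n = 2), and the fold was 0.973 (0.737 to 1.28, log2 fold change -0.04, SE 0.20, adjusted p = 0.9507). Leaving out EpoR-null 1 or EpoR-null 2 gave log2 fold changes of 0.18 and -0.31.

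Psat1, the transaminase of serine synthesis, was at 373.0 and 401 CPM in the wild type libraries, 365 CPM in the library labelled heterozygous, and 318 and 391 CPM in the EpoR-null libraries. EpoR-null 1 was the lowest library and EpoR-null 2 lay between the wild type libraries. The fold was 0.934 (0.751 to 1.16, log2 fold change -0.10, SE 0.16, adjusted p = 0.7908). A pseudogene, Gm3329, lies within the Psat1 locus, and reads that aligned to more than one place were not counted.

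Hspa5 and Xbp1 report on the ER branch. Hspa5 encodes BiP, the main chaperone of the ER lumen, and its promoter carries both ER motifs printed above. Its level was 895 and 992 CPM in the wild type libraries, 867 CPM in the library labelled heterozygous, and 851 and 977 CPM in the EpoR-null libraries. The 2 groups covered nearly the same range, averaging 918 ± 65.9 CPM in controls (SD, n = 3) and 914 ± 88.5 CPM in EpoR-null (SD, n = 2). The fold was 0.996 with an interval of 0.808 to 1.23 (log2 fold change -0.01, SE 0.15, adjusted p = 0.9918), the narrowest interval of the 8 genes on the log2 scale.

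Xbp1, the transcription factor whose mRNA is spliced by IRE1, was the gene of the 8 with the lowest p. It was at 61.5 and 67.0 CPM in the wild type libraries, 51.4 CPM in the library labelled heterozygous, and 73.95 and 78.1 CPM in the EpoR-null libraries. Both EpoR-null libraries were above all 3 controls, and the library labelled heterozygous was the lowest. Xbp1 averaged 60.0 ± 7.91 CPM in controls (SD, n = 3) and 76.0 ± 2.94 CPM in EpoR-null (SD, n = 2). The log2 fold change was 0.34 (SE 0.17, p = 0.04578 and adjusted p = 0.24 by the edgeR exact test). The log2 fold change was 0.24 without the library labelled heterozygous (adjusted p = 0.6769) and 0.09 once each library's trend on transcript length and GC content was removed (adjusted p = 0.9988). It was positive under all 19 alternative settings, from 0.08 to 0.43. These settings reuse the same libraries, and several change only the test, so the shared sign is not independent support. The deposited counts are per gene, so spliced and unspliced Xbp1 were not measured.

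**Figure D3:**
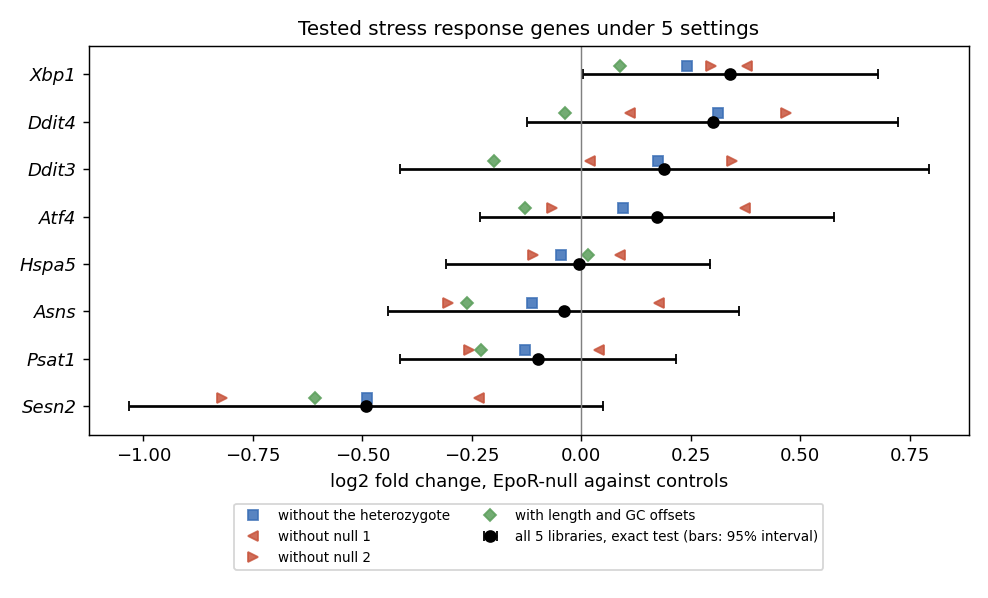
Log2 fold change of EpoR-null against controls for the 8 tested genes (black points, exact test with all 5 libraries; bars, 95% intervals) and under 4 other settings (squares, without the heterozygote; triangles, without either EpoR-null library; diamonds, with length and GC offsets). The intervals of 7 genes cross 0, that of Xbp1 runs from 0.003 to 0.678, and the values of Atf4, Asns, Psat1 and Hspa5 fall on both sides of 0 depending on the EpoR-null library left out.

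Most of the 10 genes ranked the same way between libraries of a group. Of the 10 genes, 8 were lower in EpoR-null 1 than in EpoR-null 2, all but Ddit3 and Ddit4. In wild type 1 8 were lower than in wild type 2, all but Ddit3 and Trib3. The library labelled heterozygous was below wild type 2 for 10 of 10 genes and below wild type 1 for 7 of 10. The share of all genes ranked in these ways was not counted, so the counts cannot be read as particular to these 10 genes. Its level relative to the mean of the wild type libraries was 0.348 for Trib3 and otherwise lay between 0.8 (Xbp1) and 1.15 (Chac1). The level of Epor in that library, in contrast, was within the EpoR-null range.

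Divided by transcript length, the levels of the 10 genes covered a wide range in the control neural tubes. Hspa5 was the most abundant, at 236 to 270 CPM per kilobase over the 3 controls, followed by Psat1 at 139 to 153 and Atf4 at 80.5 to 103. Asns (31.1 to 38.2) and Xbp1 (24.2 to 31.5) came next and overlapped. Ddit4 had 11.6 to 12.7 CPM per kilobase, and Ddit3 (5.89 to 6.1) and Sesn2 (5.18 to 6.15) were below it and did not differ beyond their spread. Trib3 (0.213 to 0.897) and Chac1 (0.252 to 0.48) were lowest and also overlapped. The biosynthetic and chaperone genes thus stood far above the genes of lasting stress in the controls. In the EpoR-null libraries Hspa5 (232 to 266), Psat1 (122 to 149) and Atf4 (86.4 to 117) were again the 3 highest, Trib3 (0.125 to 0.365) and Chac1 (0.185 to 0.516) the lowest, and Ddit3 (6.11 to 7.66) no longer overlapped Sesn2 (3.23 to 4.84).

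Fold changes in this comparison followed transcript length across the genome, and the stress response genes are short. In the shortest of 5 equal groups of genes by length the median log2 fold change was 0.37. In the next it was 0.158, then 0.039, then -0.109, and -0.362 in the longest. The share of genes called was 7.47% in the shortest group, then 1.67%, 1.31% and 3.62%, and 22.5% in the longest. Of the 8 tested genes 4 were in the shortest group, 2 in the second and 2 in the third. For these groups 0 of 8 called is near the share of all genes. The median transcript length of these 8 was 2074 bases against 3494 for all genes tested. With offsets that removed each library's trend on length and GC content, the log2 fold changes of Atf4 (-0.13), Ddit3 (-0.20) and Ddit4 (-0.04) took the opposite sign, those of Sesn2 (-0.61), Asns (-0.26) and Psat1 (-0.23) stayed negative, and Hspa5 was at 0.02. No gene of the 8 was called in that fit either, where 175 genes were called in all.

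**Figure D4:**
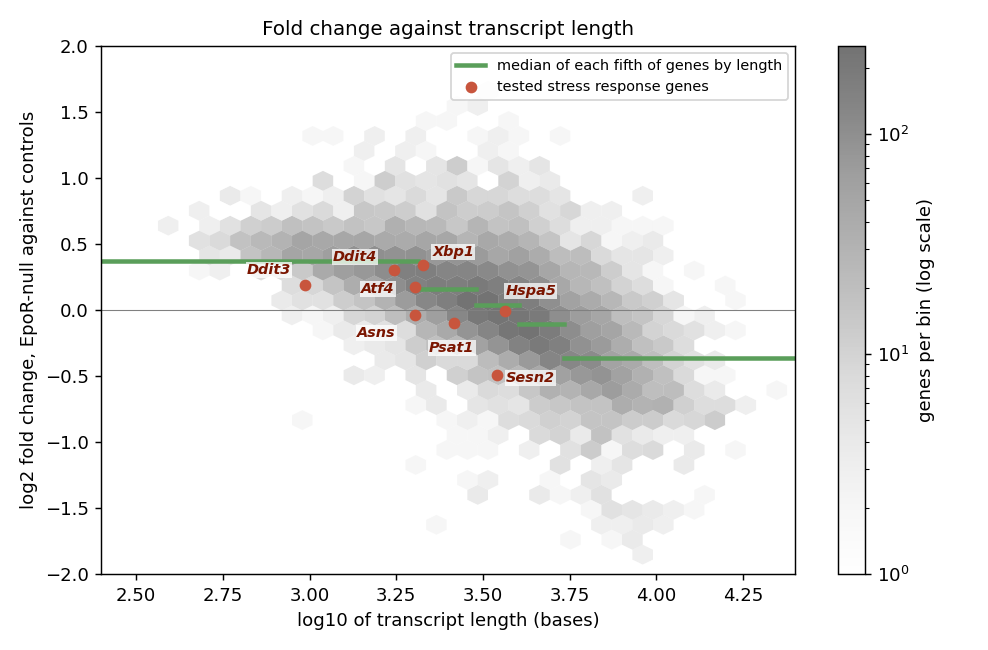
Log2 fold change of EpoR-null against controls (y axis) against log10 of transcript length in bases (x axis) for the tested genes with a known length (grey, darker where more genes fall; green lines, median in each of 5 length groups; red points, the 8 tested stress response genes). The medians fall from 0.37 in the shortest to -0.362 in the longest group, and the red points lie within the cloud, 4 of them in the shortest group (genes beyond the axes are not drawn).

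Few genes were called on most lists of the wider response. Over all genes tested 7.31% were called, so low counts on lists this short are near the background. On the list of eIF2 kinases, phosphatases and eIF2B subunits, which set the signal upstream of ATF4, 0 of 20 tested genes were called and the median log2 fold change was 0.049. The lowest p on it belonged to Ppp1r15b, a phosphatase subunit that removes the phosphate from eIF2, at 175 ± 6.56 CPM in controls and 138 ± 3.76 CPM in EpoR-null (mean ± SD, n = 3 and 2 here and below), a log2 fold change of -0.34 (adjusted p = 0.1034). The 4 kinases, chosen here after their values were seen, had log2 fold changes of -0.02 (Eif2ak1, HRI, which senses heme), -0.63 (Eif2ak2, PKR, which senses double-stranded RNA), -0.10 (Eif2ak3, PERK, of the ER) and -0.30 (Eif2ak4, GCN2, which senses uncharged tRNA), none of them called. Of 8 tested ATF and C/EBP partners 0 were called, with a median of -0.183 and the lowest p for Creb1 (-0.43, adjusted p = 0.1561). Creb1 was at -0.63 without EpoR-null 1 and at -0.25 without EpoR-null 2, and Ppp1r15b was at -0.37 and -0.31. Each of these fits leaves 1 EpoR-null library. With length and GC offsets Creb1 was at 0.10 and Ppp1r15b at -0.10.

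Among the targets of ATF4 beside the 10 genes, 66 were tested on 4 lists, and 3 were lower and 2 higher in EpoR-null, 7.58% in all, close to the 7.31% of the whole table. None of 18 genes of amino acid synthesis and one-carbon metabolism was called (median 0.036). Of 11 amino acid transporters 2 were lower and 0 higher (median -0.057). Slc7a1, a transporter of arginine and lysine, was at 81.1, 85.6 and 79.4 CPM in wild type 1, wild type 2 and the library labelled heterozygous, and at 43.5 and 44.8 CPM in the EpoR-null libraries. The EpoR-null levels were far below every control, and the log2 fold change was -0.89 (SE 0.14, adjusted p = 1.35e-07). It was called without the library labelled heterozygous (adjusted p = 0.0006821) but not with length and GC offsets (-0.53, adjusted p = 0.1451) or in the quasi-likelihood test (adjusted p = 0.05898).

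The glutamine transporter Slc38a1 was also lower, at 331 ± 5.08 CPM in controls and 247 ± 3.001 CPM in EpoR-null (log2 fold change -0.42, adjusted p = 0.02597). The log2 fold change of Slc38a1 was -0.42 again without the library labelled heterozygous, though no longer called (adjusted p = 0.1861), and with offsets it was -0.02. Of 21 genes of tRNA charging in the cytosol 1 was lower, Iars, the isoleucyl-tRNA synthetase, at 349 ± 16.2 and 244 ± 11.03 CPM (log2 fold change -0.52, adjusted p = 0.007117), and the list's median was -0.03. Iars was called without the library labelled heterozygous (-0.56, adjusted p = 0.04194) but not without wild type 1 (-0.51, adjusted p = 0.2535), without wild type 2 (-0.49, adjusted p = 0.1449) or with offsets (-0.42, adjusted p = 0.3403). Transcripts of Slc7a1 (7179 bases), Slc38a1 (7266) and Iars (4426) are above the median of 3494 for all genes tested. Those of Slc7a1 and Slc38a1 are in the longest length group (from 5430 bases), where the median log2 fold change was -0.362 and 22.5% of genes were called. That of Iars is in the fourth group (4010 to 5427 bases), where the median was -0.109 and 3.62% were called. Of 16 other ATF4 or CHOP targets 2 were higher and 0 lower (median 0.193), and both serve autophagy. Map1lc3b, the autophagosome protein LC3B, was at 77.3 ± 2.14 and 105 ± 12.1 CPM (log2 fold change 0.44, adjusted p = 0.03114), and Sqstm1, the cargo receptor p62, at 53.6 ± 1.99 and 71.0 ± 2.06 CPM (0.41, adjusted p = 0.04803). Without the library labelled heterozygous the log2 fold changes were similar and not called (0.46 with adjusted p = 0.2436 for Map1lc3b, 0.38 with adjusted p = 0.3954 for Sqstm1). With offsets they were 0.45 (adjusted p = 0.06711) and 0.22 (adjusted p = 0.8097). The transcript of Map1lc3b (4138 bases) is in the fourth length group. That of Sqstm1 (2673 bases) is in the second, where the median log2 fold change was 0.158.

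Genes of the ER response other than Hspa5 and Xbp1 lay near the background of all genes tested. On the 3 ER lists together 45 genes were tested, and 1 was lower and 1 higher. That is 4.44% called, beside 7.31% of all genes tested (5.49% lower and 1.81% higher). The median log2 fold change was 0.068, against 0.056 over all genes tested. Of 17 ER chaperones and folding enzymes 0 were called (median 0.149), and Manf, a secreted ER stress protein, had the lowest p, at 125 ± 5.71 and 162 ± 18.8 CPM (log2 fold change 0.37, adjusted p = 0.1003). Manf was at 0.49 without EpoR-null 1, at 0.25 without EpoR-null 2 and at 0.16 with offsets. Of 19 genes of ER-associated degradation and translocation 1 was higher (median 0.018), the translocon subunit Sec61g, at 84.0 ± 5.80 and 117 ± 7.31 CPM (log2 fold change 0.48, adjusted p = 0.01278). The log2 fold change of Sec61g was 0.53 without the library labelled heterozygous (adjusted p = 0.09816) and 0.26 with offsets (adjusted p = 0.7191). Its transcript, 1862 bases long, is in the shortest length group, where the median log2 fold change was 0.37. Of 9 ER stress sensors and related factors 1 was lower (median -0.181). It was Ern1, which encodes IRE1, the enzyme that splices Xbp1, at 10.4, 8.86 and 9.08 CPM in wild type 1, wild type 2 and the library labelled heterozygous and at 4.65 and 2.92 CPM in the EpoR-null libraries. Every control was well above both EpoR-null libraries, while the level of Xbp1 was above the controls in the same libraries. The log2 fold change of Ern1 was -1.33 (SE 0.35, adjusted p = 0.008912), and it was -1.35 without the library labelled heterozygous (adjusted p = 0.0678) and -1.001 with offsets (adjusted p = 0.06711). The transcript of Ern1, 6946 bases long, is in the longest length group.

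**Figure D5:**
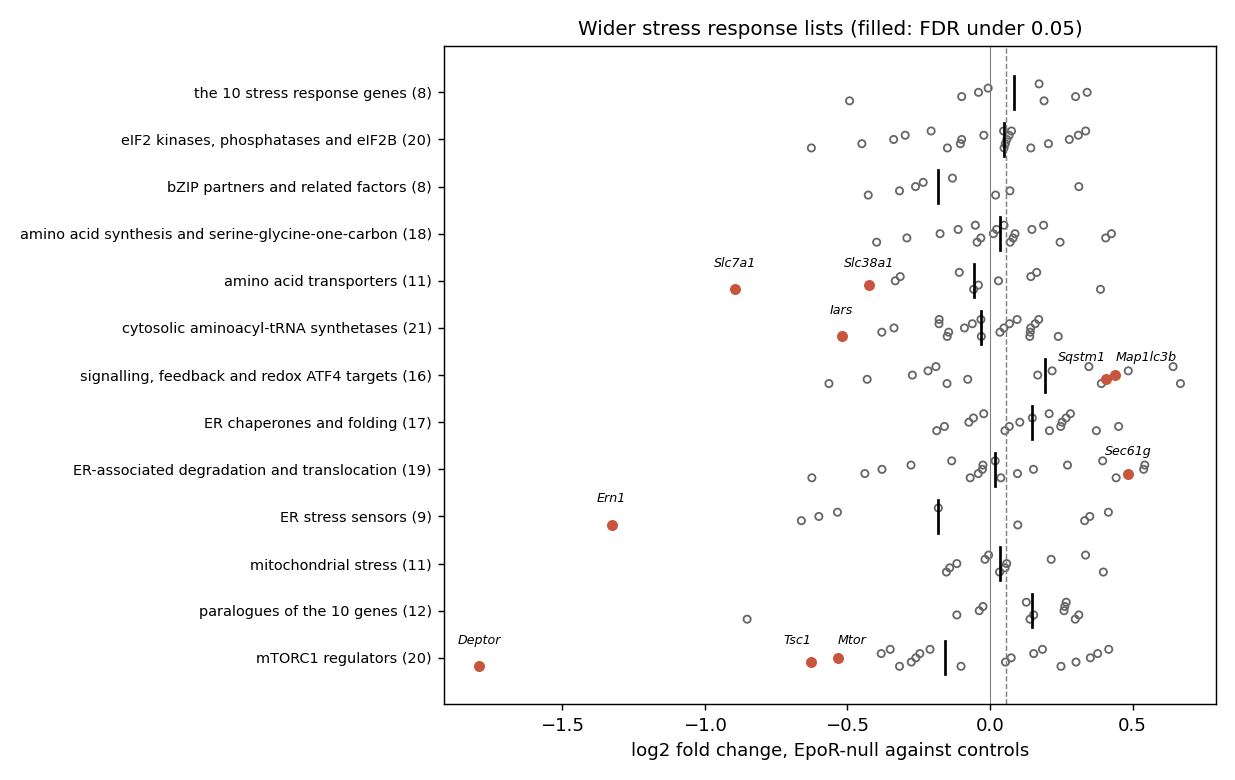
Log2 fold change of EpoR-null against controls (x axis) for every tested gene of the 10 stress response genes and of 12 wider lists (rows, with the number of tested genes; circles, genes; filled and named, FDR under 0.05; black ticks, list medians; dashed line, median of all genes tested, 0.056). The filled genes are 10 of all those drawn, 7 lower and 3 higher, and no gene is filled on the first row.

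Of 20 tested regulators of mTORC1, on which Ddit4 and Sesn2 act, 3 were lower and 0 higher (median -0.156). That is 15% called, beside 7.31% of all genes tested (5.49% lower). All 3 have transcripts in the longest of the 5 length groups, where 22.5% of genes were called. Mtor, the kinase itself, was at 121, 126 and 125 CPM in the controls and 89.7 and 81.8 CPM in the EpoR-null libraries (log2 fold change -0.53, SE 0.13, adjusted p = 0.002625). Tsc1, a subunit of the TSC complex, was at 64.3 ± 1.63 and 41.7 ± 7.71 CPM (-0.63, adjusted p = 0.01312), and Deptor, an inhibitor bound to the kinase, at 1.68 ± 0.280 and 0.489 ± 0.0941 CPM (-1.79, adjusted p = 0.009887). Deptor passed the filter only through the controls, with 33, 74 and 44 reads in wild type 1, wild type 2 and the library labelled heterozygous against 11 and 12 reads in the EpoR-null libraries, so its call is not independent of the filter. Without the library labelled heterozygous the log2 fold changes were close to these and not called, at -0.53 for Mtor (adjusted p = 0.09188), -0.61 for Tsc1 (adjusted p = 0.175) and -1.70 for Deptor (adjusted p = 0.07768). With offsets they were -0.12, -0.25 and -1.29, none of them called, and the transcripts are 8564, 7702 and 8547 bases long. The 3 genes encode the kinase of the complex, a bound inhibitor and a subunit of an upstream inhibitor. Of the 10 called genes on these lists, Slc7a1 was called with any of the 3 controls left out and Iars with the library labelled heterozygous left out. The other 8 lost their call whichever control was left out. Most calls in the whole table were lost in these fits too. The number called fell from 928 to 115 without wild type 1, 313 without wild type 2 and 253 without the library labelled heterozygous.

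The remaining lists held no called gene, which for lists this short is near the 7.31% called over all genes tested. Of 11 mitochondrial chaperones and proteases, targets of the mitochondrial stress response, 0 were called (median 0.034), with the lowest p for the protease Clpp (log2 fold change 0.40, adjusted p = 0.3831). Clpp was at 0.69 without EpoR-null 1, at 0.02 without EpoR-null 2 and at -0.125 with offsets. Of 12 paralogues of the 10 genes 0 were called (median 0.147), and the lowest p was that of Sesn3, a relative of Sesn2, at 16.3 ± 2.51 and 9.08 ± 3.73 CPM (log2 fold change -0.85, adjusted p = 0.1543). Sesn3 was at -1.34 without EpoR-null 1, at -0.48 without EpoR-null 2 and at -0.36 with offsets. Sesn3, like Sesn2, was below all controls in both EpoR-null libraries, but the lower library was EpoR-null 2 for Sesn3 (6.44 CPM, against 11.7) and EpoR-null 1 for Sesn2.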

How the data were processed

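Per the labels, the authors used Trimmomatic 0.32 for trimming, TopHat2 2.1.0 for alignment to mm9 and HTSeq 0.6.1 for counting (the labels' build differs from the one in the study's text), and deposited raw read counts, not normalized. Multiply aligned reads and reads over several genes are not counted by HTSeq. Its summary lines were not used as genes. Reads on no gene were 8.115% to 11.03% of the reads on a gene, on several genes or on none, with multiply aligned reads left out. The tests used edgeR 4.0.16 in R 4.3.3 (TMM, tagwise dispersions, exactTest, EpoR-null against the 3 controls). The filter kept 12703 of 23284 genes (CPM over 1 in 2 or more samples), p-values were adjusted by Benjamini-Hochberg over all of them, and genes with FDR under 0.05 were called. Standard errors come from the negative binomial information, and intervals are 95%. P-values rest on the spread between libraries within the groups, with dispersions partly shared across genes, and the controls mix wild type and heterozygote. The study's text does not say whether a library holds 1 embryo or a pool. Replicates differed by more than counting noise. Lengths and GC content of the longest transcript came from GENCODE M21 by symbol (12586 tested genes), and promoters from RefSeq. Scripts were tested on simulated data. Alternatives included DESeq2 1.42.0. In each wider list up to 4 called genes with the lowest adjusted p were named, otherwise the gene with the lowest p, except that 1 such gene is not reported here. The genes and lists were chosen with earlier results of these data known.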

Additional observations from a re-analysis of the deposited data

How the results depend on the processing

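The number of genes called, 928, was 1737 with DESeq2, 258 with a common dispersion, 438 with tagwise dispersions without a trend (chosen after seeing the data), 0 with the quasi-likelihood F-test and 0 with the heterozygote as its own group in that test (chosen likewise). By the likelihood-ratio test 939 genes were called, and 175 with length and GC offsets. With 1 library left out the number ran from 115 (without wild type 1) to 3778 (without EpoR-null 1), and was 253 without the library labelled heterozygous, 313 without wild type 2 and 1654 without EpoR-null 2. The causes were not tested. Of the 8 stress response genes the number called was 0 in every setting but one, between 0 and 1 with a library left out, Sesn2 being called without EpoR-null 2. Thinned counts, RLE factors, scaling by library size, testing without a filter and a minimum of 10 reads per sample gave 756 to 992 called genes.

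Signs turned for genes that were not called. With length and GC offsets the log2 fold change was -0.129 for Atf4, -0.199 for Ddit3, -0.036 for Ddit4, 0.015 for Hspa5, 0.104 for Creb1 and -0.125 for Clpp. With 1 library left out it ran from -0.067 to 0.374 for Atf4, from -0.305 to 0.178 for Asns, from -0.257 to 0.041 for Psat1 and from -0.111 to 0.089 for Hspa5.

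Wild type and EpoR-null share replicate numbers 1 and 2, but nothing says that a number marks a litter or a day, and 2 pairs do not settle the pairing. The difference of the numbers in wild type and in EpoR-null correlated across the 12703 tested genes (Pearson 0.427, Spearman 0.529, genes not being independent replicates). With the replicate block the quasi-likelihood F-test called 695 genes and 0 of the 8. With the replicate block and length and GC offsets together it called 0 genes, and the log2 fold change was -0.166 for Atf4, -0.182 for Ddit3, -0.007 for Ddit4, 0.087 for Creb1 and -0.167 for Clpp. The 5 libraries limit what can be seen: the 95% intervals of the 8 genes allow folds from 0.489 to 1.73, and Trib3 and Chac1, at 5 to 44 reads per library, cannot be followed at this depth.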
